A study of Mus musculus with 5 samples.

Results

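The solute carrier genes are described here by the presence of 2 chromatin proteins at their promoters in mouse embryonic stem cells, the pluripotent cells of the early embryo grown in culture. Members were symbols in the deposited promoter tables of the form Slc, digits, the letter a, digits, apart from a few such genes that are not reported here and enter no count below. This gave 215 members of the 12697 symbols in those tables, in 221 of 13039 promoter rows. The choice used names only, and no measured value.

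The proteins were mapped by chromatin immunoprecipitation with sequencing (ChIP-seq) in 5 libraries, 1 per group. An antibody to KAP1 was used on the KAP1 fl/fl line after vehicle (ethanol) and after 4-hydroxytamoxifen, the drug that sets off removal of the floxed gene. An antibody to Ring1b was used on the Ring1b fl/fl line after either treatment, and on the KAP1 fl/fl line after the drug. Vehicle or drug was given for 24 h and culture went on for 48 h, with tamoxifen still present for the Ring1b fl/fl line and without it for the KAP1 fl/fl line, on irradiated mouse embryonic fibroblasts. The KAP1 and Ring1b maps therefore come from vehicle-treated cells of different lines, and each was called against the drug-treated cells of its own line. A further list, called the knockout list below, holds Ring1b peaks of drug-treated KAP1 fl/fl cells called against drug-treated Ring1b fl/fl cells. The sources used here do not name the recombinase's driver or the number of clones per line. ChIP-seq of these proteins gives no expression level, so the cell type was not checked by markers and the loss of either protein was not checked by its RNA. With 1 library per group no value has a replicate error, and no difference was tested.

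Solute carriers are membrane proteins that move small solutes across membranes by facilitated diffusion or by coupling to an ion gradient. Numbered subfamilies group them by sequence. Slc25 carriers sit mainly in the inner mitochondrial membrane and are used by nearly all cells, while many Slc6 transporters take neurotransmitters back into neurons and glia. KAP1, encoded by Trim28, is a corepressor recruited by zinc finger proteins. Ring1b, encoded by Rnf2, is a ubiquitin ligase subunit of Polycomb repressive complex 1, which in embryonic stem cells is known for occupying CpG-rich promoters of developmental genes.

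The promoter sequences of 7 members are shown because they represent the classes compared below. Slc25a3 and Slc25a20 had KAP1 without Ring1b, Slc6a11 had Ring1b without KAP1, and Slc25a4, Slc6a4, Slc17a6 and Slc30a3 had both. Each sequence runs from 250 bases before to 50 bases after a transcript start, 5′ to 3′ on the strand of the gene, from RefSeq on GRCm38.p6. Capitals mark the dinucleotide CG, which reads the same on both strands. Of the 215 members, 165 matched a sequence in that table by symbol.
Slc25a3 (chr10:91123918-91124217, minus strand): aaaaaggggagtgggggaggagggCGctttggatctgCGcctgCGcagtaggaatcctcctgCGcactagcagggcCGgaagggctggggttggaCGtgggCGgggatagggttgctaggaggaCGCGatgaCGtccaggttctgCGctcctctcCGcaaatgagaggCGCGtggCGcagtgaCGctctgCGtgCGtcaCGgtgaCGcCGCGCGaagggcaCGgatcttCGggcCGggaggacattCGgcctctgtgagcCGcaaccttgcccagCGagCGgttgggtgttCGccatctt
Slc25a20 (chr9:108661886-108662185, plus strand): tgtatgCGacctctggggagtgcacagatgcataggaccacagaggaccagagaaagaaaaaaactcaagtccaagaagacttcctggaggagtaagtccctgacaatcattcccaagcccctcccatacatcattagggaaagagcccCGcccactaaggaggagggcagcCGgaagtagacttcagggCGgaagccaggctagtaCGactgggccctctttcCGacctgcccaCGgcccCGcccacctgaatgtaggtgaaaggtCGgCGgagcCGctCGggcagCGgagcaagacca
Slc25a4 (chr8:46211013-46211312, minus strand): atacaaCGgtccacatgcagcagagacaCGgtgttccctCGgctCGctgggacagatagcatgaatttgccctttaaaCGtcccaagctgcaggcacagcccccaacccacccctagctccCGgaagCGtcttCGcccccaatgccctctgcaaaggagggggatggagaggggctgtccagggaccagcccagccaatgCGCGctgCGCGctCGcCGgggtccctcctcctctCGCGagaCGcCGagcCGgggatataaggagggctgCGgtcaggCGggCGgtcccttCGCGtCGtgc
Slc6a4 (chr11:76998347-76998646, plus strand): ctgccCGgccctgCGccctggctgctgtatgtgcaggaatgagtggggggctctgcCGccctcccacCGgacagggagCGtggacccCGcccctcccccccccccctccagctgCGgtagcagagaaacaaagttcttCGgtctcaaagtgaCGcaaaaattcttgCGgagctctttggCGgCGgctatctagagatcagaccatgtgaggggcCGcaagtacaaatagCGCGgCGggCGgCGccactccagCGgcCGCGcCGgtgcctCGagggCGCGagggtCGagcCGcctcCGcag
Slc6a11 (chr6:114130991-114131290, plus strand): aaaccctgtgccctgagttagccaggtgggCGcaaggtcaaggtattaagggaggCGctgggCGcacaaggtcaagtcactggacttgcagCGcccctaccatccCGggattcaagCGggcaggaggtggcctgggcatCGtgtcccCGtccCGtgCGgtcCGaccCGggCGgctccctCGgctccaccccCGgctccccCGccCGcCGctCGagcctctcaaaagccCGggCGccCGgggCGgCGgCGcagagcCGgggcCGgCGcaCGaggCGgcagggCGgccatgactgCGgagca
Slc17a6 (chr7:51621580-51621879, plus strand): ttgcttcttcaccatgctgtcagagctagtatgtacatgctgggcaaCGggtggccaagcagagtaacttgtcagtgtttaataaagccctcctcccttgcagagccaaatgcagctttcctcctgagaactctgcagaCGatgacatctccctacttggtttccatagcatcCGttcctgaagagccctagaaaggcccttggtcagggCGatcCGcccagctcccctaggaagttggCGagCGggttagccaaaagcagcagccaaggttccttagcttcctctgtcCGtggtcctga
Slc30a3 (chr5:31093478-31093777, minus strand): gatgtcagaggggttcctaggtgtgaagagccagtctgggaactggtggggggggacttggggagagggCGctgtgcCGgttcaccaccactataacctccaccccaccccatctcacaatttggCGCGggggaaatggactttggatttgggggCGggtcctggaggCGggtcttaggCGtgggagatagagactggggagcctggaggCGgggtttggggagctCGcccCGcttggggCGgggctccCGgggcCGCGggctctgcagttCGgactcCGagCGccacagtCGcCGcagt

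The 300 bases of Slc25a3 held 31 CG dinucleotides and those of Slc25a20 held 13. A KAP1 peak covered all 300 bases of both, and no Ring1b peak touched either. The Slc25a4 sequence held 25 CG and was covered in full by peaks of both proteins. The Slc6a11 sequence, with 32 CG, was covered in full by Ring1b alone. At Slc6a4, with 28 CG, Ring1b covered all 300 bases and KAP1 covered 198. The Slc17a6 sequence held 8 CG, with 164 bases under KAP1 and 148 under Ring1b. Slc30a3, printed at the start on which its deposited promoter is centred, held 19 CG under full coverage by both proteins. Across all 32851 promoter sequences of the same length, 94.6% held at least 1 CG, and the median number was 7 with quartiles of 3 and 20. All 7 sequences were above that median, with and without Ring1b.

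Promoters had been sorted in the deposited tables into 3 classes, by the peaks within 1 kb of a transcript start in either direction. A shared promoter had a peak of both proteins, and the others had KAP1 only or Ring1b only. Of the 215 members, 102 had a shared promoter (47.4%, exact 95% interval 40.61 to 54.34), against 40.6% of all listed genes. A KAP1 only promoter was held by 100 members (46.5%, interval 39.7 to 53.42), against 53.5% of all listed genes. A Ring1b only promoter was held by 16 members (7.44%, interval 4.31 to 11.8), against 6.88% of all listed genes. Counted over proteins, 199 members had KAP1 at a promoter (92.6%, background 93.4%) and 118 had Ring1b (54.9%, interval 47.97 to 61.66, background 47.3%). The background lies just below the interval for Ring1b and inside the interval for KAP1 (88.2 to 95.69). These exact intervals treat genes as independent draws and cover counting error only. The tables hold no gene without either protein, so each share is a share of bound promoters.

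Of 334 annotated genes with such a symbol, 229 (68.6%) had an accession in a promoter row, against 62.2% of all 21031 protein-coding RefSeq genes. The 215 members are those for which a row was named. The other 14 lay in rows named for another gene or by an older symbol, and 105 had no row. Of those 105, 73 had no peak within 1 kb of a RefSeq start, 28 could not be placed, 1 had KAP1 there, 1 had Ring1b and 2 had both.

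The shares differed widely between transport groups, and the spread ran from no listed gene to every listed gene with Ring1b. Plasma membrane neurotransmitter transporters stood at the top of the order. Mitochondrial carriers, the group with the most members, stood near its lower end, above only groups of 7 or fewer listed genes. The plot of classes by transport group shows this order.

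**Figure D1:**
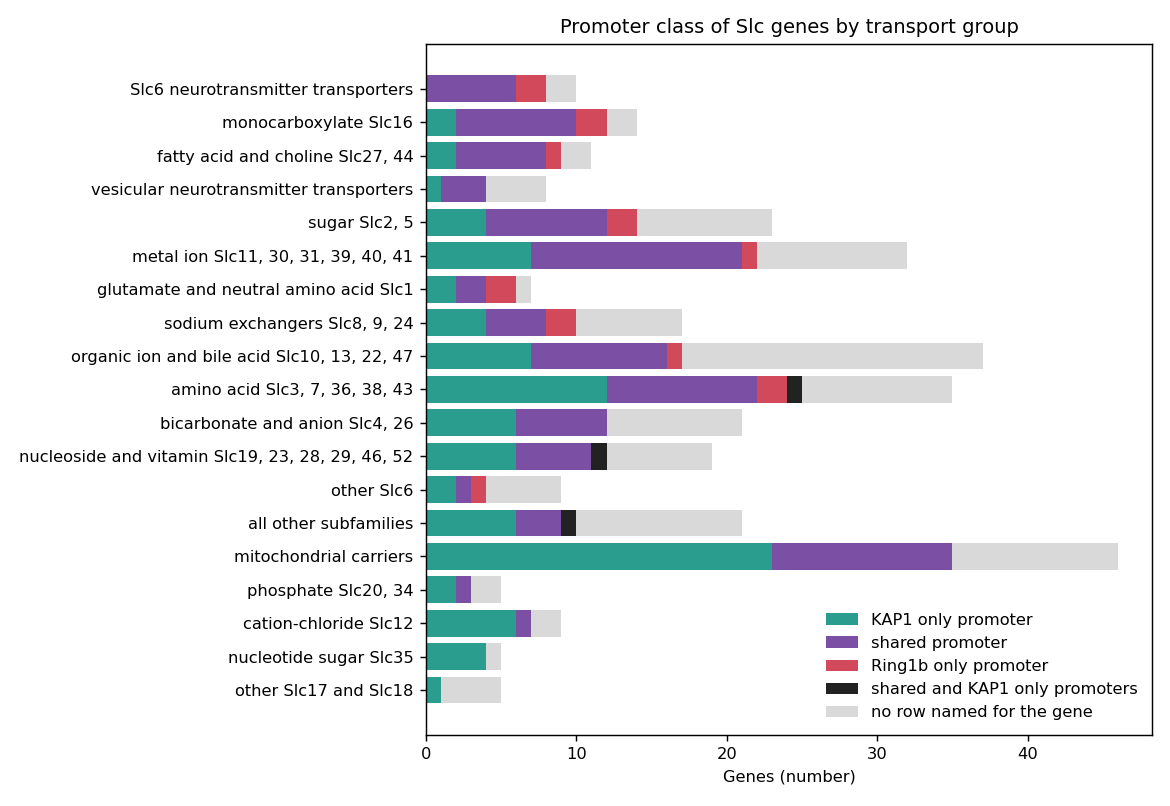
Number of Slc genes (horizontal axis) by transport group (vertical axis), ordered by the share of listed genes with Ring1b at a promoter. Colours give the promoter class and grey gives annotated genes with no row under their own symbol. All 8 listed Slc6 neurotransmitter transporters carry Ring1b, against 12 of 35 mitochondrial carriers.

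Of 46 annotated Slc25 genes, 35 were members. All 35 had KAP1 at a promoter, 23 had KAP1 only, 12 were shared and none had Ring1b only. A count of 0 in 35 allows a share of up to 8.57%. Ring1b was thus present at 34.3% of listed Slc25 promoters (12 of 35, interval 19.13 to 52.21), against 58.9% of the 180 members outside Slc25 (106 of 180) and 47.3% of all listed genes.

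The score of a peak is 10 times its −log10 p in the deposited peak list, and it ranks peaks within 1 list only. KAP1 scores at Slc25 promoters ran from 59.2 to 575 with a median of 152, and 30 of 35 were above the median of the KAP1 list, 96.2, as were 74.6% of all listed genes with KAP1. The 12 Ring1b scores ran from 50.3 to 719.5 with a median of 115, and 5 of 12 were above the median of the Ring1b list, 116, as were 66.6% of all listed genes with Ring1b. Counts above a list median in later paragraphs are read against these shares. For all listed genes the medians were 146 for KAP1 and 240 for Ring1b. Mitochondrial carriers with Ring1b therefore had a lower median Ring1b score than listed genes with Ring1b as a whole, and a similar median KAP1 score.

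Carriers of phosphate, fatty acid and citrate metabolism gave examples of the KAP1 only class. Slc25a3, the mitochondrial phosphate carrier (chromosome 10, 91116574 to 91124046), had a KAP1 score of 203 and no Ring1b peak. Slc25a20, which exchanges carnitine and acylcarnitine (chromosome 9, 108662136 to 108684642), had a KAP1 score of 191 and no Ring1b peak. Slc25a1, the citrate carrier, had a KAP1 score of 201, from a peak whose summit lay 644 bp before the start. The peaks of both Slc25a3 and Slc25a20 had summits within 100 bp of the start, at −27 and 91 bp. The highest KAP1 only scores among the carriers were 269.6 at Slc25a36, a pyrimidine nucleotide carrier, and 268 at Slc25a39, a glutathione transporter.

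The ADP/ATP carriers fell into different classes. Slc25a4 (chromosome 8, 46207168 to 46211062), the form of heart and muscle, was shared, with a KAP1 score of 256 and a Ring1b score of 147. Slc25a5, the form of most dividing cells, on chromosome X, had KAP1 only, with a score of 119.6.

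Only 3 carriers had Ring1b scores above 500. They were Slc25a21, which carries oxodicarboxylates, at 719.5, Slc25a30, named kidney mitochondrial carrier 1, at 637, and Slc25a48 at 576. Slc25a30 also had the highest KAP1 score of the subfamily, 575, above 99.4% of the KAP1 list. Its KAP1 and Ring1b summits were 17 bp apart, and those of Slc25a21 were 4 bp apart. The other 9 shared carriers had Ring1b scores between 50.3 at Slc25a13, an aspartate and glutamate carrier, and 147 at Slc25a4. Slc25a51, the mitochondrial NAD transporter, lay near the low end with 53.6.

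Genes of the mitochondrial protein import machinery, listed for comparison, encode the translocases of the inner and outer membranes. Of 23 Timm and Tomm genes 17 were listed, 15 with KAP1 only and 2 shared, so Ring1b was at 11.8% of them. The 2 shared genes were Tomm20 (Ring1b score 51.9) and Tomm40l (81.4), both below the list median.

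Plasma membrane transporters of neurotransmitters in Slc6 use the sodium and chloride gradients to take up GABA, glycine, proline or monoamines. Of 10 annotated genes of this kind 8 were listed, and all 8 had Ring1b, 6 in shared promoters and 2 with Ring1b only. Their Ring1b scores ran from 87.1 to 1783 with a median of 427, and 7 of 8 were above the list median of 116. Their 6 KAP1 scores ran from 62.2 to 248 with a median of 158.

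The 3 monoamine transporters differed in class and rank. Slc6a4, the serotonin transporter (chromosome 11, 76998597 to 77032343), had the highest Ring1b score of the group, 1783, above 90.1% of the list, from a peak of 1963 bp. Its strongest KAP1 peak was 274 bp wide with a score of 62.2, above 18.9% of the KAP1 list, and its summit lay 11 bp from the Ring1b summit. Slc6a2, the noradrenaline transporter (chromosome 8, 92960470 to 93001667), had a Ring1b score of 946 over 1845 bp and no KAP1 peak. Slc6a3, the dopamine transporter (chromosome 13, 73536128 to 73578672), ranked lowest of the 3 for Ring1b, with a score of 186 and a KAP1 score of 139.

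Slc6a11, a GABA transporter (chromosome 6, 114131241 to 114249886), had Ring1b only, with a score of 415, above 74.7% of the list, from a peak of 973 bp. Slc6a12 and Slc6a13, which also belong to this group, had no promoter row.

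Both glycine transporters were shared. Slc6a5, the form of inhibitory neurons, had a Ring1b score of 514 and a KAP1 score of 92.7, with summits 1461 bp apart. Slc6a9, the widely expressed form, had a Ring1b score of 309 and a KAP1 score of 178. Slc6a7, the proline transporter, was the exception in rank: its Ring1b score of 87.1 was the only one of the 8 below the list median, and its KAP1 score of 248 was the highest of the 6.

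The other Slc6 genes carry amino acids, taurine or creatine. Of 9 annotated genes 4 were listed. Slc6a6, the taurine transporter, had KAP1 only with a score of 388, above 97.4% of the list. Slc6a8, the creatine transporter on chromosome X, had KAP1 only with a score of 81.0. Slc6a17, a vesicular amino acid transporter of neurons, was shared with a Ring1b score of 1380.0 (KAP1 score 221), and Slc6a15, a neutral amino acid transporter of brain, had Ring1b only with a score of 492. Ring1b was therefore at 10 of 12 listed Slc6 genes (83.3%, interval 51.59 to 97.91). That interval overlaps the one of Slc25, 19.13 to 52.21, by less than 1 percentage point.

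Vesicular transporters load transmitters into synaptic vesicles using a proton gradient. Of 8 annotated genes 4 were listed, 3 shared and 1 with KAP1 only. Slc17a6, which loads glutamate, had a KAP1 score of 127 and a Ring1b score of 96.0, with summits 36 bp apart. Slc18a2, which loads monoamines, had a KAP1 score of 59.8 and a Ring1b score of 284. Slc18a3, which loads acetylcholine, had a KAP1 score of 137 and a Ring1b score of 3100, the value at which 732 peaks of the list are tied. Its Ring1b peak ran over 3931 bp, from 32462023 to 32465953 on chromosome 14, and the row also holds Chat, the gene of the enzyme that makes acetylcholine. Slc17a9, which loads nucleotides, had KAP1 only with a score of 167.

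With the vesicular genes added, Ring1b was at 11 of 12 listed neurotransmitter transporters (91.7%, interval 61.52 to 99.79), and 9 of the 11 Ring1b scores were above the list median. Of the 18 annotated genes, 6 had no row of their own. Over all 18 the share with Ring1b in a row of their own was 61.1%, against 26.1% of all 46 annotated Slc25 genes. With rows under another symbol counted, the shares were 66.7% (12 of 18) and 28.3% (13 of 46). Of the 6, Slc32a1, which loads GABA and glycine, lay in a shared row named for Gm14204, with a Ring1b score of 3100 over 7436 bp and a KAP1 score of 170.04. Slc18a1, the other monoamine loader, lay in the row of Atp6v1b2 with KAP1 only (score 128). Slc17a7 and Slc17a8, the other glutamate loaders, had no row.

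Enzymes that make neurotransmitters were read beside them. Of 10 such genes 5 had a row under their own symbol, 3 shared and 2 with KAP1 only. Gad1 and Gad2, which make GABA, both had a Ring1b score of 3100. Tph1 and Tph2, which make the serotonin precursor, had KAP1 only, with scores of 97.4 and 152. At the serotonin system Ring1b was thus listed at the transporter Slc6a4 and at neither hydroxylase.

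**Figure D2:**
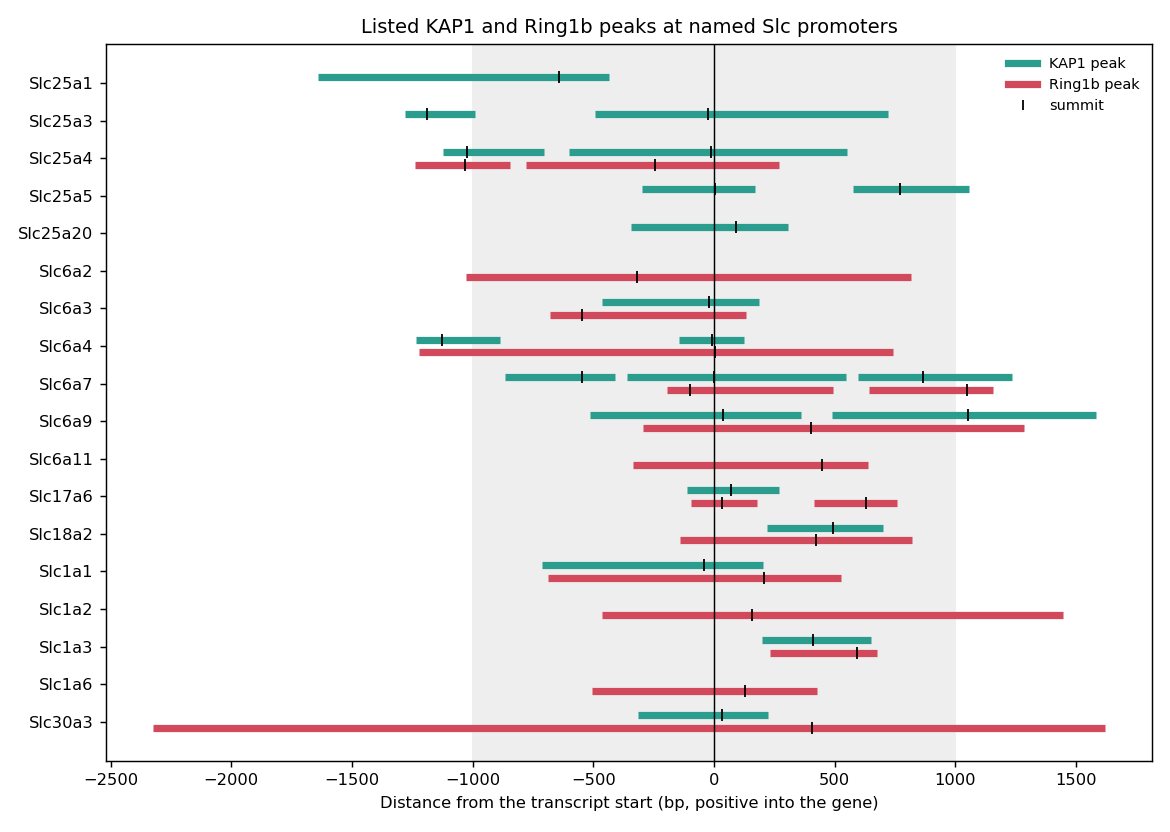
Extent of every listed peak at 18 named Slc promoters, in bp from the transcript start on which the deposited promoter is centred (0, positive into the gene). Green bars are KAP1 peaks, red bars are Ring1b peaks, ticks are summits and the grey band is the promoter window. Slc25a1, Slc25a3, Slc25a5 and Slc25a20 have green bars only, while Slc6a2, Slc6a11, Slc1a2 and Slc1a6 have red bars only.

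The Slc1 family takes up glutamate or small neutral amino acids. Of 7 annotated genes 6 were listed, 4 of them with Ring1b (66.7%). Slc1a2, the main glutamate transporter of astrocytes (chromosome 2, 102658239 to 102790784), had Ring1b only with a score of 1091. Slc1a6, the form of Purkinje cells, had Ring1b only with a score of 385. Slc1a1, the neuronal form, was shared, with a Ring1b score of 549 and a KAP1 score of 149.6. Slc1a3, the other astrocyte form, was shared with low ranks for both, a Ring1b score of 75.2 and a KAP1 score of 69.0. The neutral amino acid exchangers Slc1a4 and Slc1a5 had KAP1 only, with scores of 169.9 and 133. All 4 listed glutamate transporters thus had Ring1b, and neither of the neutral exchangers did.

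Other amino acid transporters belong to Slc3, Slc7, Slc36, Slc38 and Slc43. Of 35 annotated genes 25 were listed, and 13 had Ring1b. Housekeeping transporters were among those without it. Slc7a5, the large neutral amino acid transporter, had KAP1 only with a score of 214, and Slc7a1, the cationic amino acid transporter, had KAP1 only with a score of 72.2. Classes within Slc7 were mixed, with 5 of 11 listed genes shared, 5 with KAP1 only and 1 with Ring1b only. Slc3a2, the heavy chain that pairs with Slc7a5, had 1 shared and 1 KAP1 only promoter, with top scores of 255 for KAP1 and 121 for Ring1b. Slc38a2, a glutamine transporter, had a KAP1 score of 198 and a Ring1b score of 146, with summits 1426 bp apart.

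The highest Ring1b scores of this group were at Slc43a1, a neutral amino acid transporter, with 1903, and at Slc7a2, a cationic amino acid transporter, with 1089. Slc7a10, a serine and glycine transporter of astrocytes, had a Ring1b score of 951. Slc7a8 (394) and Slc36a4 (278) had Ring1b only. Slc7a9, the cystine transporter of kidney, had the highest KAP1 score of the group, 382, and KAP1 only. Slc7a11, the cystine and glutamate exchanger, had no promoter row.

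The facilitative Slc2 transporters, mostly of sugars, were read together with the sodium-coupled Slc5 transporters, which carry sugars but also iodide, vitamins, choline or monocarboxylates (sugar Slc2, 5 in the plots). Of 23 annotated genes 14 were listed and 10 had Ring1b (71.4%), with a median Ring1b score of 120.4 and 5 of 10 above the list median. The common glucose transporters had Ring1b at low rank. Slc2a1, the glucose transporter of most cells, had a KAP1 score of 406, above 97.8% of the KAP1 list, and a Ring1b score of 51.9, above 2.8% of the Ring1b list, with summits 1 bp apart. Slc2a3, the neuronal form, had a KAP1 score of 136 and a Ring1b score of 79.3. Slc2a4, the insulin-responsive form, had a KAP1 score of 92.4 and a Ring1b score of 71.0. Being counted as shared therefore covered very unequal ranks of the 2 proteins.

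Genes of this group with high Ring1b ranks were Slc2a13, the proton and inositol symporter, with a score of 887, and Slc5a8, a sodium-coupled monocarboxylate transporter, with Ring1b only and a score of 659. Slc5a1, the intestinal sodium and glucose cotransporter, was shared with a Ring1b score of 461 and a KAP1 score of 84.8. Slc5a7, the choline transporter of cholinergic neurons, had Ring1b only with a score of 81.4. The highest KAP1 scores were at Slc2a7 (571) and Slc5a11 (494), both with KAP1 only.

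The Slc16 family carries lactate, pyruvate and other monocarboxylates. Of 14 annotated genes 12 were listed, 8 shared, 2 with KAP1 only and 2 with Ring1b only, so 83.3% had Ring1b. Their Ring1b scores had a median of 321, and 8 of 10 were above the list median. Slc16a11 had Ring1b only, with a score of 1008. The lactate transporters Slc16a1 and Slc16a3 were shared, with Ring1b scores of 235 and 52.5 and KAP1 scores of 412 and 224. Slc16a14 ranked high for both, with a KAP1 score of 472 and a Ring1b score of 1084.

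Metal ion transporters comprise the Slc11, Slc30, Slc31, Slc39, Slc40 and Slc41 genes. Of 32 annotated genes 22 were listed, and 15 had Ring1b (68.2%), 12 of them above the list median. The zinc exporters of Slc30, which move zinc out of the cytosol, had Ring1b at 7 of 8 listed genes (87.5%) and the importers of Slc39 at 4 of 9 (44.4%), with intervals that overlap (47.35 to 99.68 and 13.7 to 78.8). Slc30a1, the plasma membrane zinc exporter, had the highest KAP1 score of all members, 679.9 in the peak list, with a Ring1b score of 254. The deposited promoter table gives 219 for the same KAP1 region. Slc30a3, which loads zinc into synaptic vesicles, had a KAP1 score of 59.05 and a Ring1b score of 3100, with the widest Ring1b peak of all members, 3942 bp. Slc30a10, a manganese exporter, had a Ring1b score of 1818, and Slc30a2, a vesicular zinc transporter, had 1130.0.

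Slc39a8, an importer of zinc and manganese, had the largest listed Ring1b score of all members, 3167, with a KAP1 score of 76.5 and coincident summits. As 732 peaks are tied at 3100, its order against the 4 members with that score cannot be settled from the listed values. Slc39a4, the intestinal zinc importer, had KAP1 only with a score of 323. The iron transporters Slc11a2 and Slc40a1 were shared. Slc11a2, the ferrous iron importer, had a KAP1 score of 57.8 and a Ring1b score of 116, and Slc40a1, the iron exporter ferroportin, had a KAP1 score of 106 and a Ring1b score of 194. Slc41a1, a magnesium transporter, had KAP1 only with a score of 432. Slc39a14, an importer of zinc and iron, had Ring1b only with a score of 58.5.

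Among ion exchangers the classes were mixed. Of 10 listed sodium exchangers in Slc8, Slc9 and Slc24, 6 had Ring1b. Slc8a2, a sodium and calcium exchanger of brain, had KAP1 only with a score of 225, while its relative Slc8a3 was shared with a Ring1b score of 798. Slc9a2, an epithelial sodium and proton exchanger, had Ring1b only with a score of 2419 over 3208 bp. Slc24a4 and Slc24a2, potassium-dependent sodium and calcium exchangers, were shared with Ring1b scores of 3100 and 1039. Slc9a7, the form of the Golgi, had Ring1b only with a score of 102. Slc8a1 had no promoter row.

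Of 7 listed cation and chloride cotransporters in Slc12 only 1 had Ring1b (14.3%, interval 0.36 to 57.87). That gene was Slc12a5, which extrudes chloride from neurons, with a KAP1 score of 365 and a Ring1b score of 142. Slc12a2, which brings chloride into cells, had KAP1 only with a score of 51.0, the lowest KAP1 score of all members. Bicarbonate and anion transporters of Slc4 and Slc26 had Ring1b at 6 of 12 listed genes. Slc4a4, a sodium and bicarbonate cotransporter, had a Ring1b score of 1469 over 2638 bp. Slc26a4, the anion exchanger pendrin, had a KAP1 score of 234 and a Ring1b score of 867.

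Organic ion and bile acid transporters in Slc10, Slc13, Slc22 and Slc47 were listed for 17 of 37 annotated genes, and 10 of the 17 had Ring1b (58.8%), 9 above the list median. The carnitine and cation transporters Slc22a4, Slc22a5 and Slc22a21 were all shared, with Ring1b scores of 627, 149.98 and 1078. Slc22a5, the main carnitine importer, had a KAP1 score of 447. Slc22a23 had the highest Ring1b score of the group, 1180.05. Slc22a17, a lipocalin receptor, had Ring1b only with a score of 74.8.

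Fatty acid and choline transporters of Slc27 and Slc44 had Ring1b at 7 of 9 listed genes (77.8%), 3 of the 7 above the list median. Slc27a1 and Slc44a2 had KAP1 scores of 473 and 459 beside Ring1b scores of 74.7 and 98.1, while Slc27a2 had a Ring1b score of 1421. Slc44a5 had Ring1b only with a score of 707. Nucleoside and vitamin transporters had Ring1b at 6 of 12 listed genes, with Ring1b scores of 64.1 to 174. Slc29a1, the equilibrative nucleoside transporter, had KAP1 only with a score of 387, and Slc19a1, the reduced folate carrier, had KAP1 only with a score of 159. Slc20a1, a phosphate transporter, had KAP1 only with a score of 59.4. None of the 4 listed nucleotide sugar transporters with the letter a in Slc35 had Ring1b. With so few genes the exact interval reaches 60.24%.

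**Figure D3:**
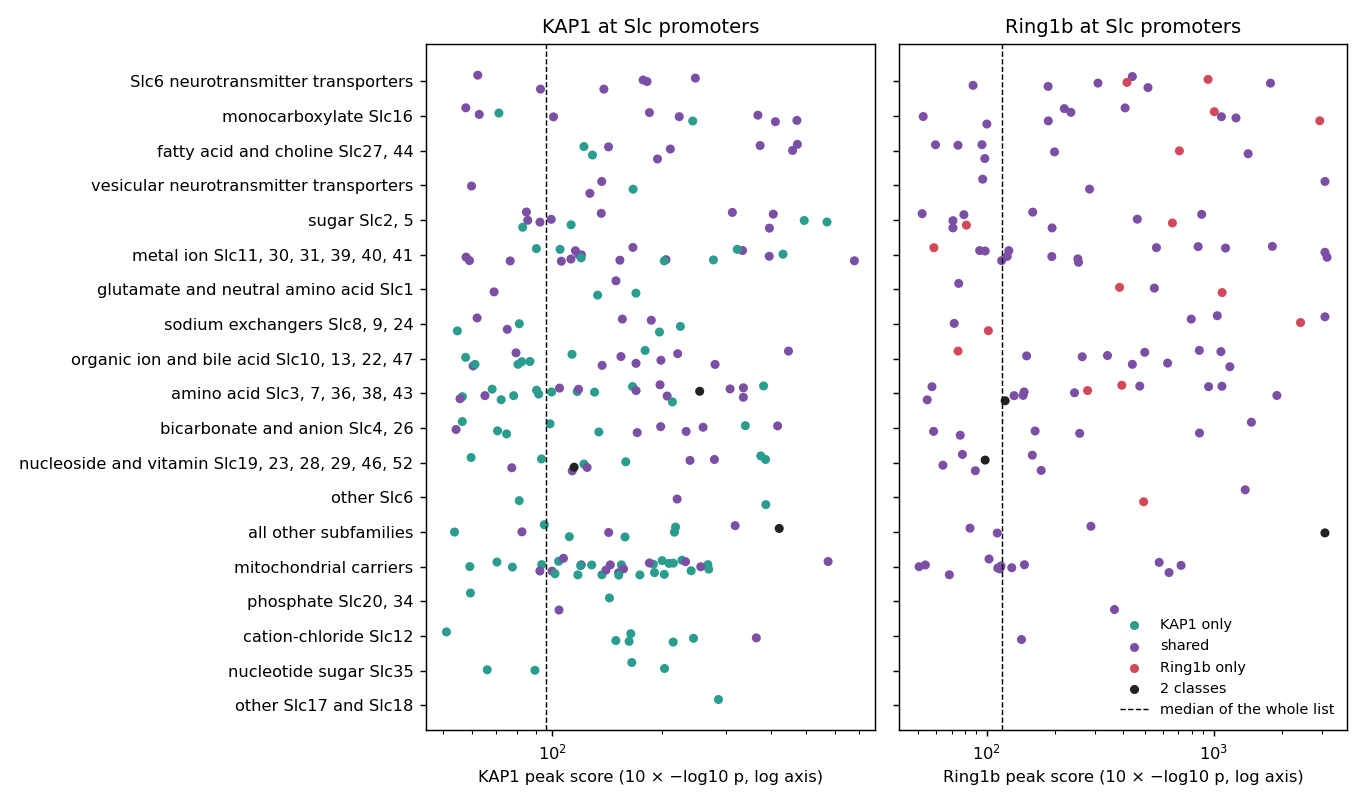
Peak score on a log axis (10 × −log10 p) of the strongest KAP1 peak (left) and Ring1b peak (right) at each Slc promoter, by transport group, with vertical jitter for visibility. Each point is 1 gene, its colour is the promoter class, and the dashed line is the median of the whole list. Of the Ring1b points 81 of 118 lie above that line, as do 145 of 199 KAP1 points (68.6% and 72.9%, against 66.6% and 74.6% of all listed genes with the protein).

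Medians over the members were set beside those of all listed genes of the same class. Shared members had a median KAP1 score of 154, the same as the 154 of all shared genes, and a median Ring1b score of 194 against 214. KAP1 only members had a median KAP1 score of 131 against 140.1, and Ring1b only members a median Ring1b score of 454 against 565. The quartiles of Ring1b scores at shared promoters were 98.2 and 632 for the members and 86.6 and 904 for all shared genes. Both proteins scored above their list medians at 51 members. That was 29.1% of the 175 members with a peak above either list median. Over all listed genes the same share was 24.6% (2531 of 10296).

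Wide Ring1b peaks were also counted. A peak of 2000 bp or more was at 14 of 118 members with Ring1b (11.9%), against 22.3% of all listed genes with Ring1b. The 3 widest were at Slc30a3 (3942 bp), Slc18a3 (3931 bp) and Slc9a2 (3208 bp). Of the 12 mitochondrial carriers and the 8 Slc6 neurotransmitter transporters with Ring1b, none had such a peak. Median Ring1b widths were 735 bp at the carriers and 1318.5 bp at those Slc6 genes, against 938 bp over all listed genes with Ring1b.

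The 16 members with Ring1b only held 12 with a score above the list median. Slc9a2 (2419), Slc1a2 (1091), Slc16a11 (1008) and Slc6a2 (946) were among the highest. The lowest were Slc39a14 (58.5), Slc22a17 (74.8), Slc5a7 (81.4) and Slc9a7 (102). The 3 members with promoters in more than 1 class were Slc3a2, Slc45a3 and Slc52a3, each with a shared and a KAP1 only promoter. Slc45a3, expressed in prostate, had a KAP1 score of 422 and a Ring1b score of 3100. At Slc52a3, a riboflavin transporter, the shared promoter had a KAP1 score of 95.9 and a Ring1b score of 98.4. Its strongest KAP1 peak, with a score of 115, lay at the KAP1 only promoter.

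A shared promoter has a peak of each protein in the same promoter region, so some overlap is built into the class. The strongest peaks of each overlapped at 89 of 102 shared members (87.3%). That share was not computed over all shared genes. It takes the strongest peaks over all promoters of a gene, which at Slc52a3 lie at different promoters. Among the 99 members with a shared promoter and no other class, summits were a median of 250 bp apart, against 236 bp for all shared genes. They lay within 100 bp at 35 of the 99 and more than 1000 bp apart at 5. These counts of distance were not set beside those of all shared genes. Peaks with summits within 100 bp will mostly overlap, so overlap was bound to be the more frequent and nothing is drawn from that order.

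**Figure D4:**
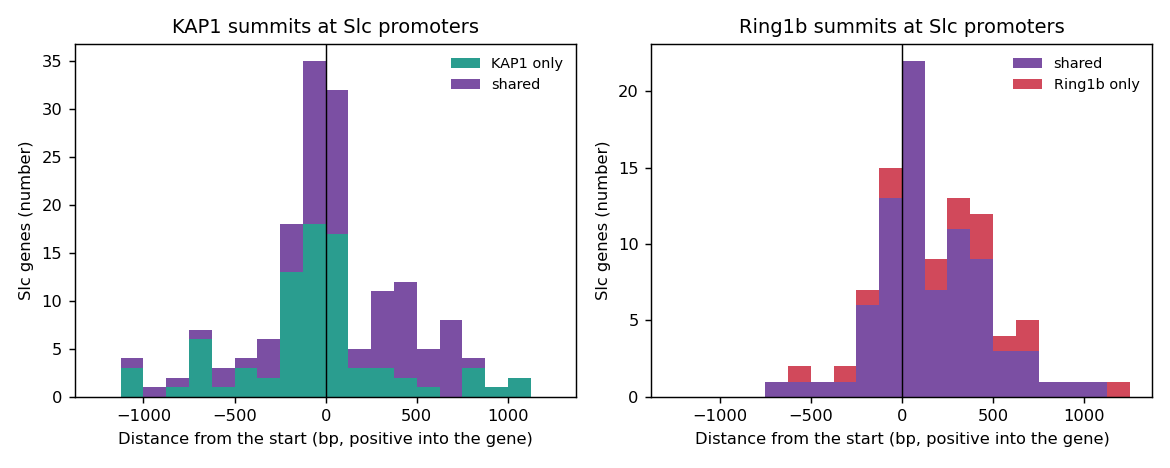
Distance of the strongest peak's summit from the transcript start in bp (horizontal axis, positive into the gene) and number of Slc genes per 125 bp bin (vertical axis), for KAP1 (left) and Ring1b (right), stacked by promoter class. Ring1b summits at shared promoters lie into the gene in 58 of 81, and KAP1 summits at KAP1 only promoters in 32 of 79. Positions over all listed genes were not computed.

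Positions were read only at promoter rows with a single start, and only for the members. No such shares were computed over all listed genes, so these cannot be called particular to Slc promoters. KAP1 summits lay into the gene at 32 of 79 KAP1 only members (40.5%) and at 48 of 81 shared members (59.3%). Ring1b summits lay into the gene at 58 of 81 shared members (71.6%) and at 11 of 16 Ring1b only members (68.8%). The median KAP1 summit was at −33 bp in KAP1 only members and at 46 bp in shared members, while the median Ring1b summit was at 78 bp in shared and 316.5 bp in Ring1b only members. The ranges within each class spanned more than 1000 bp, and all classes overlapped.

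Members with Ring1b only were longer genes, with a median length of 49779 bp, against 30380 bp for shared and 24857 bp for KAP1 only members. Over all listed genes the medians were 34213, 32370 and 20625 bp. The quartiles overlapped between classes, at 34218 to 120128 bp for Ring1b only and 11307 to 53992 bp for KAP1 only members.

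In the deposited whole-gene tables, which class peaks over the gene itself, 236 Slc genes were listed. Of these 122 were shared (51.7%, background 46.7%), 100 had KAP1 only (42.4%, background 49.9%) and 14 had Ring1b only (5.93%, background 3.49%). Most members kept their class: 88 of 99 shared, 68 of 97 KAP1 only and 11 of 16 Ring1b only members had the same class in both kinds of table. A peak at a promoter can also lie in the gene, so part of this match is built in. The counts were not set beside those of all listed genes, so they cannot be called particular to Slc genes. Of the KAP1 only members 14 were shared over the whole gene, among them Slc39a4, Slc5a11 and Slc8a2. These classes did not always match the peak list. Slc29a1, Slc48a1 and Slc4a2 were also shared there, with 0 listed Ring1b peaks within the RefSeq gene limits. Slc15a4 and Slc26a10 had 1 and 2 such peaks and were not shared there. Of the Ring1b only members Slc1a6, Slc6a15, Slc39a14 and Slc44a5 were shared over the whole gene. The other members of 1 promoter class that changed were Slc2a3 and Slc39a10, from shared to KAP1 only, and 15 KAP1 only, 9 shared and 1 Ring1b only members had no row in the whole-gene tables.

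Few members had a knockout-list peak. Such a peak lay at a promoter of 3 members (1.395%), against 3.26% of all listed genes. They were Slc30a7, a zinc transporter of the Golgi (score 53.4), Slc12a8 (53.8) and Slc39a13, a zinc transporter of connective tissue (58.1). All 3 scores were below the median of that list, 58.9. Slc30a7 had a shared promoter in vehicle cells, while Slc12a8 and Slc39a13 had KAP1 only. Within 5 kb of a promoter the count was 7 members (3.26%) against 6.198% of all listed genes. No member of Slc25 or Slc6 had a knockout-list peak at a promoter. The list compares Ring1b in KAP1-deleted cells with another line, so loss of a peak and difference between the lines cannot be told apart. Its peaks were also narrow, with a median width of 158 bp against 587 bp in the vehicle Ring1b list. An effect of the strength of this single library was not tested.

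Other transporter families gave a frame for these shares. Slc genes with another letter, such as the Slc35b to Slc35g nucleotide sugar transporters and their relatives, had 23 of 27 listed, 13 shared, 9 with KAP1 only and 1 with Ring1b only. Of them Slc35d3 had a Ring1b score of 3100 and Slc35f1 of 1479. The Slco organic anion transporters had 5 of 14 listed, 4 shared and 1 with KAP1 only, with Slco3a1 at a Ring1b score of 2715. ATP-binding cassette transporters had 26 of 46 listed, and Ring1b was at 13 of the 26 (50.0%), close to the background of 47.3%. The subunits of the sodium pump, which sets the gradient that many solute carriers use, had 6 of 7 listed and Ring1b at 4, with Atp1b1 at a KAP1 score of 1174 and a Ring1b score of 177.

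Some promoters are shared with other genes. At 21 members the row also held an accession of another gene, such as Chat at Slc18a3, Extl2 at Slc30a7 and Snhg1 at Slc3a2, so the peak cannot be given to 1 gene. Among the 14 genes in rows under another symbol, Slc9a5 was shared in the row of Fhod1 with a Ring1b score of 732, and Slc25a25 was shared in the row of Naif1 with a Ring1b score of 276. Slc25a40 had KAP1 only in the row of Dbf4. Both mitochondrial carriers are outside the counts above.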

How the data were processed

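Peaks were taken as deposited. On the build mm10 (GRCm38), the authors used MACS 1.4.2, bedtools 2.16.2, Bowtie2 and CASAVA 1.8.2, per the submitters' processing notes, which state no role for each. Per the file headers, each deposited score is 10 times −log10 p of 1 library against its control. The sources used here give no read depths.

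The authors' 3 peak lists (82775 KAP1, 13516 Ring1b and 8928 knockout-list peaks) and 6 gene tables were joined with Python 3.11.15, pandas 2.3.3, numpy 2.4.6 and scipy 1.17.1. Overlap meant at least 1 bp. A gene with several promoters counts in each class, and its score is that of its strongest listed peak. Scores in the deposited promoter table differed by over 1 from the listed peak for 114 of 199 KAP1 members and for 0 Ring1b members. Strand came from the RefSeq sequence table or, without an entry, from the nearer gene end; both gave 1 strand for 162 of 165 members. Overlaps were tested on simulated data. Intervals are exact (Clopper-Pearson, 95%), and the count of 0 Ring1b only genes in Slc25 was limited at 3 counts.

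The members, transport groups and comparison lists were chosen with earlier results of these data known. Genes named were fixed transporters, the 5 highest scores per class, the top scores of subfamilies of 5 or more members, all Ring1b only, mixed-class and knockout-list members, and the widest Ring1b peaks. Others named here were chosen after their values were seen. Alternatives were other windows, score limits, tables and denominators. A comparison of CpG content by class was void, since only 165 of 215 members (76.7%) had a sequence, under the 80% needed.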

Additional observations from a re-analysis of the deposited data

How the results depend on the processing

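Of 44 alternative values, 38 stayed within 1.5 times the main count or median, or within the exact interval of the main share, and 6 did not. With only the upper 50% of scores of each list, 51 members were shared, 96 had KAP1 only and 30 had Ring1b only, of 175 left, and Ring1b was at 16.1% of 31 Slc25 genes against 9 of 12 neurotransmitter transporters. All listed genes under that limit were 24.6% shared, 61.7% KAP1 only and 14.5% Ring1b only, against 29.1%, 54.9% and 17.1% of the members. Over all annotated genes, 61.1% of neurotransmitter transporters had Ring1b in a row of their own, and 66.7% with rows under another symbol counted, an alternative chosen after seeing the data. With the lowest-scoring peak of each gene, the median Ring1b score was 137 in place of 239. Within 5 kb, 7 members had a knockout-list peak. The share with Ring1b was higher for Slc6 than for Slc25 in each of the alternatives run, including the whole-gene tables (76.9% against 42.4%) and the annotated denominators (52.6% against 26.1%). Adding the Slc genes listed under another symbol, an alternative chosen after seeing the data, gave 107 shared, 109 KAP1 only and 16 Ring1b only genes. The score printed in the promoter tables, also added later, gave medians of 131 for KAP1 and 239.5 for Ring1b. No paired analysis was possible because each group has 1 library and no result comes from a test. Leaving out a library was not possible either. The comparison of CpG content was not run. The read depth behind each peak is unknown, so a missing peak shows only that none was listed.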
